A study of Homo sapiens with 10 samples.

Results

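The KIT and PDGF receptor family, together with its ligands, was followed in BEAS2B, an immortalized human bronchial epithelial cell line. The 9 members were KIT, PDGFRA, PDGFRB and CSF1R among the receptors and KITLG, PDGFA, PDGFB, PDGFC and CSF1 among the ligands, out of 52402 gene symbols measured. The cells were wild type, were transfected by lipofection, and fell into 5 groups of 2 libraries each. The control group (miRcontrol) received a scrambled miRNA, miR3124_mimic received a synthetic miR-3124-5p, miR200b_mimic received a synthetic miR-200b-3p, and miR92b_inhibitor received an antisense inhibitor of miR-92b, each at 50 nM. The mixed group received all 3 agents together, at amounts that the sources used here do not give. RNA was taken 48 h after transfection and mRNA was sequenced. All 10 libraries came from 1 cell line, and nothing stated that the 2 libraries of a group were separate transfections, so the p-values measure the spread between these libraries, which may be technical.

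The family was chosen by the measured level of KIT, which was high with the miR-3124-5p mimic and low with the miR-200b-3p mimic, and the other members were then taken as its relatives and their ligands. The level of KIT in those 2 groups is therefore given as a description with no test. KIT was tested in the comparison of miR92b_inhibitor with miRcontrol, of mixed with miRcontrol and of mixed with miR92b_inhibitor. The last of these compared none of the libraries by which KIT was chosen, but the spread it used was estimated from all 10 libraries. The first 2 used the miRcontrol libraries, which the choice also drew on. Of the 9 members, 8 passed the filter on low counts. CSF1R passed it through the miR3124_mimic libraries and was given no test, and PDGFRA did not pass it, which left 7 members with a test.

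KIT, PDGFRA, PDGFRB and CSF1R encode class III receptor tyrosine kinases, which sit in the cell membrane and dimerize when their ligand binds. The paired kinase domains then phosphorylate each other and recruit adaptors that start the RAS/ERK, phosphatidylinositol 3-kinase and STAT pathways. KIT binds stem cell factor, the product of KITLG, and is known from blood stem cells, mast cells, melanocytes and interstitial cells of the gut. The PDGF receptors are typical of fibroblasts, pericytes and smooth muscle, whereas airway epithelium is usually a source of PDGF ligands. CSF1R, the receptor for the CSF1 protein, is typical of macrophages.

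The mature miRNAs that were added or inhibited are shown first, because their seeds (bases 2 to 8, in capitals) define the words that were looked for in the 3′UTRs of the family. The sequences are from RefSeq (GRCh38.p14). The labels name the inhibitor only by miR-92b, and the methods add a catalogue number but no arm. The miRNA panel of the study, from which the agents were taken, holds miR-92b-5p, and both arms are given here. No pair of these miRNAs shared a seed.
miR-3124-5p: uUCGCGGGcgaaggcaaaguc
miR-200b-3p: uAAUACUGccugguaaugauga
miR-92b-5p: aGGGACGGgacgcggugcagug
miR-92b-3p: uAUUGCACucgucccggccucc

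The reverse complement of each seed was searched in the 3′UTR of 1 coding transcript per member, on the transcript strand (GENCODE v29, GRCh38). The word CCCGCGA, which pairs with miR-3124-5p, was in none of the 9 members and in 0.620% of the 3′UTRs of 12259 tested genes. The word CAGTATT, which pairs with miR-200b-3p, was in none of the members and in 19.5% of those 3′UTRs. The word GTGCAAT of miR-92b-3p was in none of the members and in 13.1%. The word CCGTCCC of miR-92b-5p was in PDGFA alone among the members and in 4.18% of those 3′UTRs. The shorter 6-base core AGTATT, which lies inside CAGTATT, was found once in KIT, PDGFRB and PDGFC and 2 times in KITLG and PDGFA, and it occurred in 41.3% of the 3′UTRs. The core TGCAAT of miR-92b-3p was found once in KIT and KITLG and 5 times in PDGFRA, and it occurred in 34.2%. The core CGTCCC of miR-92b-5p was in PDGFA alone, inside its longer word, and occurred in 10.2%, and the core CCGCGA of miR-3124-5p was in no member and occurred in 2.01%. The AGTATT sites of KIT, PDGFRB and KITLG, the 3 members whose level was lower with the miR-200b-3p mimic than in miRcontrol by 0.78 or more on the log2 scale, and the miR-92b-5p site of PDGFA are printed below with 11 bases on each side and the matching word in capitals. The AGTATT sites of PDGFA, whose log2 difference with that mimic was 0.37, and of PDGFC (-0.11) are not printed. A core followed by an A is another kind of 7-base seed match. This was so for AGTATT at base 4139 and TGCAAT at base 3162 of the KITLG 3′UTR. It was also so for TGCAAT at base 1927 of the PDGFRA 3′UTR, and for no other core found in the members. The share of all 3′UTRs with this kind of match was not counted. A match describes the letters only.
KIT, chr4:54739040-54739067, plus strand, 3′UTR base 494 of 2158: ttaagaaatctAGTATTtcatgctggga
PDGFRB, chr5:150114743-150114770, minus strand, 3′UTR base 1004 of 1926: taacattctagAGTATTccaggtggttg
KITLG, chr12:88494434-88494461, minus strand, 3′UTR base 2769 of 4426: atacctaatgaAGTATTggttttagtaa
KITLG, chr12:88493064-88493091, minus strand, 3′UTR base 4139 of 4426: tggacttgaaaAGTATTaatttagatgg
PDGFA, chr7:497617-497645, minus strand, 3′UTR base 930 of 1306: ccaatcgtacgCCGTCCCtgcggcacctg

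The libraries held 13587666 to 18503890 counts, and 14884 genes passed the filter. Levels are given as normalized CPM, that is, read counts relative to the scaled library size with factors of 0.985 to 1.016. A gene was called when the adjusted p of edgeR's quasi-likelihood test (Benjamini-Hochberg over all 14884 genes) was under 0.05. In each group the chi-square of the counts of the 2 libraries was 1.75 to 2.63 times its degrees of freedom, so the pairs differed by more than counting error. The epithelial keratins KRT7, KRT8 and KRT18 had at least 10684 counts in every library. CDH1 and EPCAM, the epithelial adhesion molecules, had mean levels of 0.146 and 0.289 CPM in miRcontrol, and the mesenchymal VIM had 3800 CPM. Summed over 7 epithelial markers, the control libraries had 2220 to 2268 CPM, miR3124_mimic 2774 to 2781, miR200b_mimic 4188 to 4270, miR92b_inhibitor 2098 to 2188 and the mixed group 4081 to 4109. Summed over 7 mesenchymal markers, they had 8041 to 8059 CPM, miR3124_mimic 5987 to 6129, miR200b_mimic 5694 to 5788, miR92b_inhibitor 7534 to 7679 and the mixed group 6096 to 6112. Nearly all of the epithelial sums came from KRT7, KRT8 and KRT18. Most of the mesenchymal sums came from VIM and FN1 (3800 and 3264 CPM in miRcontrol). In miR3124_mimic single markers went different ways, and of the 6 tested markers of each kind 2 rose and 1 fell. VIM fell from 3800 CPM in miRcontrol to 813 CPM in miR3124_mimic, where SPARC rose from 651 to 1531 CPM and COL1A1 from 11.99 to 23.82 CPM. KRT19 fell there from 8.21 to 0.760 CPM and rose to 14.4 CPM in miR200b_mimic. In miR200b_mimic all 6 tested epithelial markers rose, among them CDH1 to 9.975 CPM and EPCAM to 10.2 CPM. Of the 6 tested mesenchymal markers, 4 fell and 2 rose there, and ZEB1 fell from 63.1 to 25.7 CPM. In the mixed group 5 tested epithelial markers rose and 1 fell. The part of these shifts in the results on the family was not tested.

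**Figure D1:**
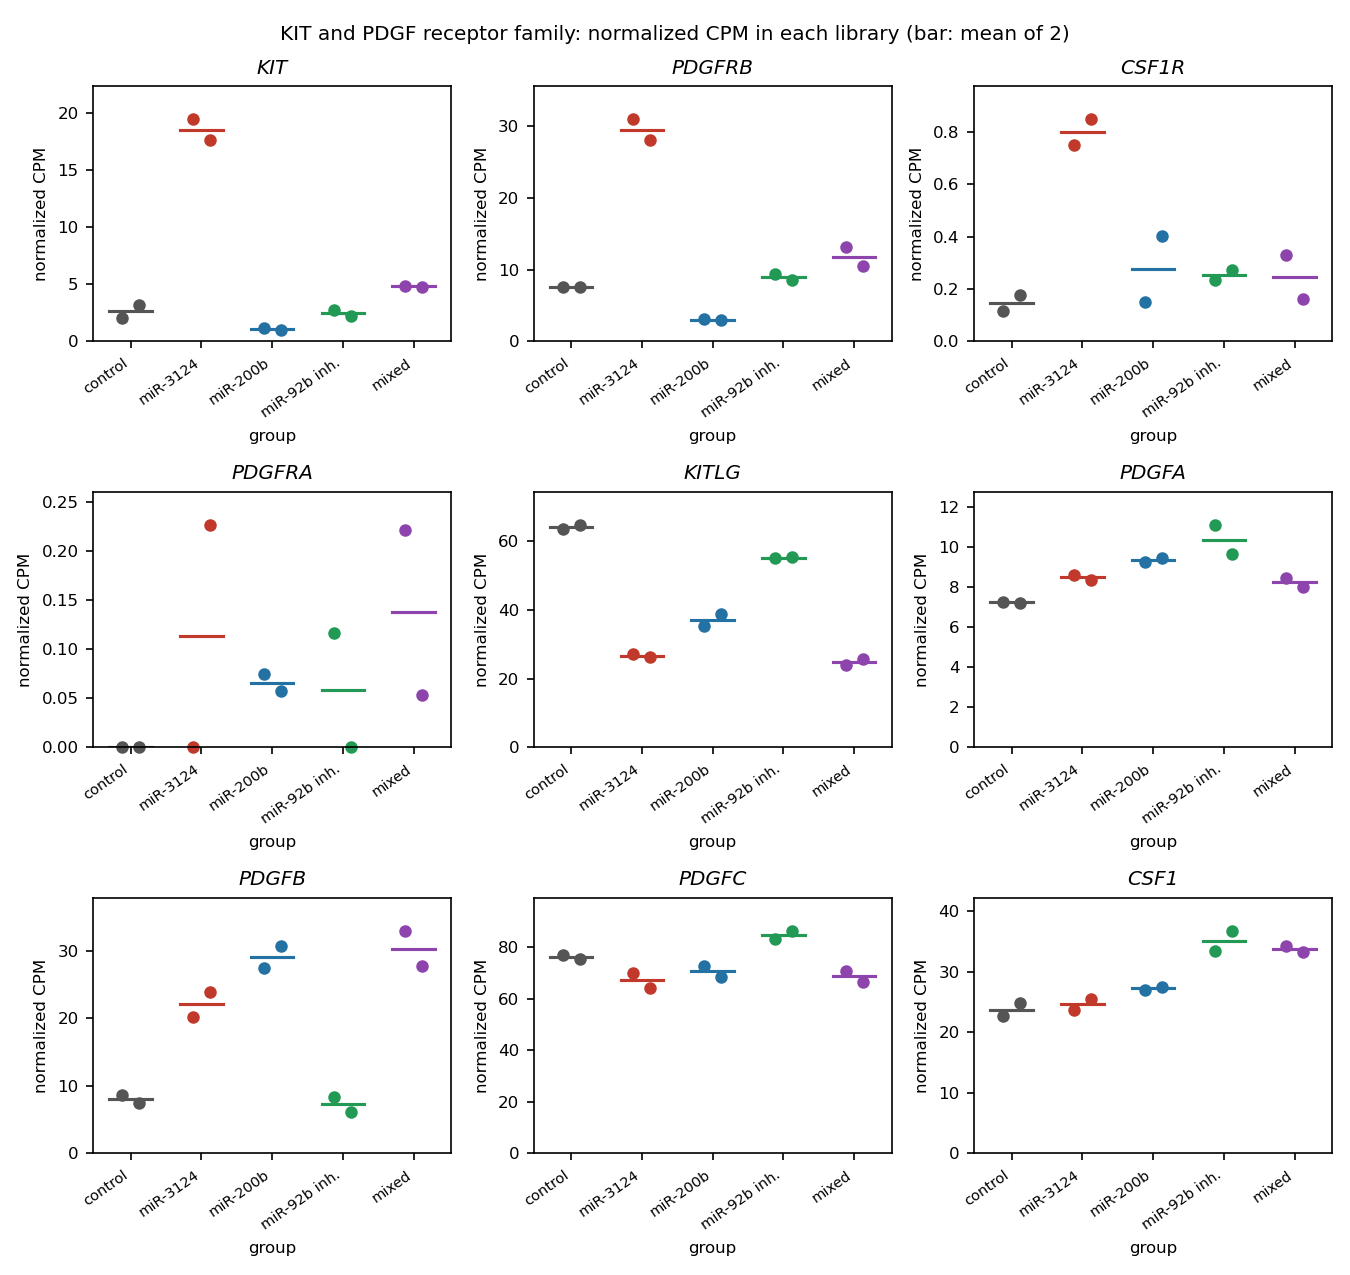
Normalized CPM (y axis, linear from 0, a separate scale in each panel) of the 9 members in the 5 groups (x axis). Points are the 2 libraries of a group and horizontal lines are their mean. KIT and PDGFRB share their highest group (miR3124_mimic) and their lowest group (miR200b_mimic), while KITLG is highest in miRcontrol.

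Among the receptors, KIT (chr4:54657918-54740715, plus strand, GRCh38) had a low level in the control cells. Its normalized level was 2.06 and 3.22 CPM in the miRcontrol libraries, from 36 and 54 counts. It was 19.5 and 17.7 CPM in miR3124_mimic, from 285 and 312 counts. It was 1.20 and 0.978 CPM in miR200b_mimic, from 16 and 17 counts. The 2 miR3124_mimic libraries lay far above all others and the 2 miR200b_mimic libraries below all others, and the highest and lowest group means (18.6 and 1.09 CPM) stood 17.1-fold apart. As a description, the fitted log2 fold change against miRcontrol was 2.81 (SE 0.17), or 7.02-fold higher, in miR3124_mimic. It was -1.29 (SE 0.29), or 2.44-fold lower, in miR200b_mimic. In bulk RNA, fewer cells with KIT and less KIT RNA per cell cannot be told apart.

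The libraries of the other 2 groups were outside that choice, but the miRcontrol libraries were part of it. The 2 tests of KIT against miRcontrol were therefore not independent of the choice. KIT stood at 2.74 and 2.19 CPM in miR92b_inhibitor, inside the range of the control libraries, with a log2 fold change of -0.10 (95% interval -0.57 to 0.38, adjusted p = 0.795, edgeR). In the mixed group it stood at 4.87 and 4.79 CPM, above both control libraries. It rose by 0.87 on the log2 scale against miRcontrol (SE 0.21, 1.83-fold, adjusted p = 4.55e-04, edgeR). This call rested on miRcontrol replicate 1, without which the log2 difference was 0.58 (adjusted p = 0.051). Against miR92b_inhibitor, KIT was higher in the mixed group by 0.97 (SE 0.21, adjusted p = 1.46e-04), and it stayed past the threshold under each of 11 alternatives (log2 0.81 to 1.14). In order of mean level, miR3124_mimic was followed by mixed, miRcontrol, miR92b_inhibitor and miR200b_mimic, and only miRcontrol and miR92b_inhibitor overlapped among neighbours.

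PDGFRB (chr5:150113837-150155872, minus strand), the receptor for PDGF-BB, was the member whose levels were most like those of KIT. It stood at 7.61 and 7.64 CPM in miRcontrol. It stood at 30.9 and 28.0 CPM in miR3124_mimic and at 3.14 and 2.93 CPM in miR200b_mimic. No library of these 3 groups overlapped with another group. PDGFRB rose with the miR-3124-5p mimic by 1.95 on the log2 scale (SE 0.11, 3.85-fold, adjusted p = 1.64e-19, edgeR). It fell with the miR-200b-3p mimic by 1.33 on the log2 scale (SE 0.18, 2.52-fold lower, adjusted p = 1.97e-08). The group means of PDGFRB spanned 9.70-fold.

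With the miR-92b inhibitor PDGFRB was 9.34 and 8.59 CPM, a log2 difference of 0.23 (95% interval -0.04 to 0.51, adjusted p = 0.194, edgeR) from miRcontrol. In the mixed group it was 13.1 and 10.5 CPM and rose by 0.63 on the log2 scale against miRcontrol (SE 0.13, adjusted p = 7.35e-05). The mixed level lay below miR3124_mimic by 1.31 on the log2 scale (a log2 change of -1.31, SE 0.11, adjusted p = 9.22e-15) and above miR200b_mimic by 1.96 (SE 0.16, adjusted p = 4.62e-14). The difference of 0.40 from miR92b_inhibitor (adjusted p = 0.00875) depended on mixed replicate 1, without which it was 0.24 (adjusted p = 0.254), and on miR92b_inhibitor replicate 2, without which it was 0.34 (adjusted p = 0.0964).

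CSF1R (chr5:150053291-150113372, minus strand) lies 464 bases from PDGFRB on the same strand and was close to the detection limit. The control libraries had 2 and 3 raw counts, the miR3124_mimic libraries 11 and 15, the miR200b_mimic libraries 2 and 7, the miR92b_inhibitor libraries 4 and 5 and the mixed libraries 6 and 3. The 2 miR3124_mimic libraries were the highest of the 10. Its normalized level was 0.114 and 0.179 CPM in miRcontrol and 0.751 and 0.849 CPM in miR3124_mimic, given as a description, since CSF1R was kept by the filter through the latter group.

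PDGFRA (chr4:54229097-54298247, plus strand), the neighbour of KIT at a distance of 359.7 kb, was barely detected. It had 13 counts over the 10 libraries, at most 4 in one library and 0 in 4 libraries, both miRcontrol libraries among them. A count of 0 allows up to 3 counts, or 0.161 to 0.224 CPM at the depths of these libraries. PDGFRA also overlaps AC058822.1 on the same strand, so its few reads are uncertain. Any change of PDGFRA was not detectable at this depth.

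Among the ligands, KITLG (chr12:88492793-88580851, minus strand), which encodes stem cell factor, was lower than miRcontrol in every other group. It stood at 63.6 and 64.7 CPM in miRcontrol. The miR-3124-5p mimic gave 27.1 and 26.4 CPM, the miR-200b-3p mimic 35.5 and 38.8 CPM and the miR-92b inhibitor 55.1 and 55.5 CPM. The mixed group had 23.9 and 25.7 CPM, the lowest levels. All 8 libraries outside miRcontrol lay below both miRcontrol libraries. The miRcontrol libraries were themselves transfected, with the scrambled miRNA, and the same 2 serve every comparison with miRcontrol. KITLG fell by 1.26 on the log2 scale with the miR-3124-5p mimic (SE 0.07, 2.40-fold lower, adjusted p = 5.87e-21, edgeR). It fell by 0.78 with the miR-200b-3p mimic (SE 0.06, adjusted p = 3.91e-14), by 0.22 with the miR-92b inhibitor (SE 0.06, adjusted p = 0.00366) and by 1.37 in the mixed group (SE 0.07, 2.59-fold lower, adjusted p = 3.33e-22). The mixed level differed from miR3124_mimic by -0.11 (95% interval -0.26 to 0.05, adjusted p = 0.270) and was lower than miR200b_mimic by 0.59 on the log2 scale (a log2 change of -0.59, adjusted p = 7.82e-09). In miR3124_mimic the ligand KITLG was thus at its second lowest group mean while its receptor KIT was at its highest.

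PDGFB (chr22:39223359-39244751, minus strand) encodes the PDGF B chain, the main ligand of PDGFRB. It stood at 8.59 and 7.52 CPM in miRcontrol and at 8.403 and 6.131 CPM in miR92b_inhibitor, and these 2 groups overlapped. The miR-3124-5p mimic gave 20.3 and 23.9 CPM, the miR-200b-3p mimic 27.4 and 30.7 CPM and the mixture 32.9 and 27.7 CPM. PDGFB rose by 1.46 on the log2 scale (SE 0.12, 2.75-fold, adjusted p = 5.06e-14, edgeR) with the miR-3124-5p mimic, by 1.85 (SE 0.12, 3.62-fold, adjusted p = 9.50e-18) with the miR-200b-3p mimic and by 1.91 (SE 0.12, 3.75-fold, adjusted p = 1.30e-18) in the mixed group. With the miR-92b inhibitor the log2 difference was -0.16 (95% interval -0.46 to 0.15, adjusted p = 0.463). PDGFB thus rose with both mimics, which moved its receptor PDGFRB in opposite directions. The mixed group differed from miR200b_mimic by 0.05 (95% interval -0.14 to 0.25, adjusted p = 0.701) and was above miR3124_mimic by 0.45 (adjusted p = 1.76e-04).

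PDGFA (chr7:497258-520296, minus strand) encodes the PDGF A chain and changed less. It stood at 7.27 and 7.22 CPM in miRcontrol and at 11.1 and 9.64 CPM in miR92b_inhibitor, its highest level. It rose by 0.51 on the log2 scale with the miR-92b inhibitor (SE 0.14, 1.43-fold, adjusted p = 0.00215, edgeR), but without miR92b_inhibitor replicate 1 the adjusted p was 0.0513. PDGFA was the member whose 3′UTR held a miR-92b-5p word, printed above. The part of that word in the rise was not tested, and the inhibited arm is not given. PDGFA stood at 8.60 and 8.37 CPM in miR3124_mimic (log2 0.23, adjusted p = 0.186) and at 8.46 and 8.02 CPM in the mixed group (log2 0.18, adjusted p = 0.304). The rise to 9.27 and 9.43 CPM in miR200b_mimic (log2 0.37, adjusted p = 0.0317) was lost without any one of the miRcontrol or miR200b_mimic libraries (adjusted p = 0.0673 to 0.122).

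PDGFC (chr4:156760454-156971394, minus strand), a ligand that is activated by proteolysis, had the highest level per kb of exon in the family and the narrowest range, with group means 1.26-fold apart. Control cells had 77.2 and 75.6 CPM, the miR-3124-5p mimic gave 70.1 and 64.3 CPM and the miR-200b-3p mimic 72.8 and 68.6 CPM. It stood at 83.1 and 86.2 CPM in miR92b_inhibitor and at 70.8 and 66.6 CPM in the mixed group. It fell by 0.19 on the log2 scale with the miR-3124-5p mimic (adjusted p = 0.00408, edgeR; 0.144 without miR3124_mimic replicate 2). The changes of 0.15 with the miR-92b inhibitor (adjusted p = 0.0250) and -0.15 in the mixed group (adjusted p = 0.0198) were each lost without some single libraries, with adjusted p up to 0.182 without miR92b_inhibitor replicate 2 and up to 0.220 without mixed replicate 2.

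CSF1 (chr1:109910242-109930992, plus strand), the macrophage growth factor, stood at 22.7 and 24.8 CPM in control cells, at 23.8 and 25.6 CPM after the miR-3124-5p mimic and at 27.1 and 27.5 CPM after the miR-200b-3p mimic. It stood at 33.4 and 36.7 CPM in miR92b_inhibitor and at 34.3 and 33.3 CPM in the mixed group. These last 2 groups lay above the other 3 with no overlap. CSF1 rose by 0.56 on the log2 scale with the miR-92b inhibitor (SE 0.08, 1.48-fold, adjusted p = 1.45e-07, edgeR) and by 0.51 in the mixed group (SE 0.08, adjusted p = 6.46e-07). Its log2 differences of 0.06 in miR3124_mimic (adjusted p = 0.595) and 0.20 in miR200b_mimic (adjusted p = 0.0510) did not pass. The mixed level was above miR3124_mimic by 0.45 (adjusted p = 5.73e-06) and above miR200b_mimic by 0.31 (adjusted p = 0.00156), and it differed from miR92b_inhibitor by -0.06 (95% interval -0.20 to 0.09, adjusted p = 0.601).

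**Figure D2:**
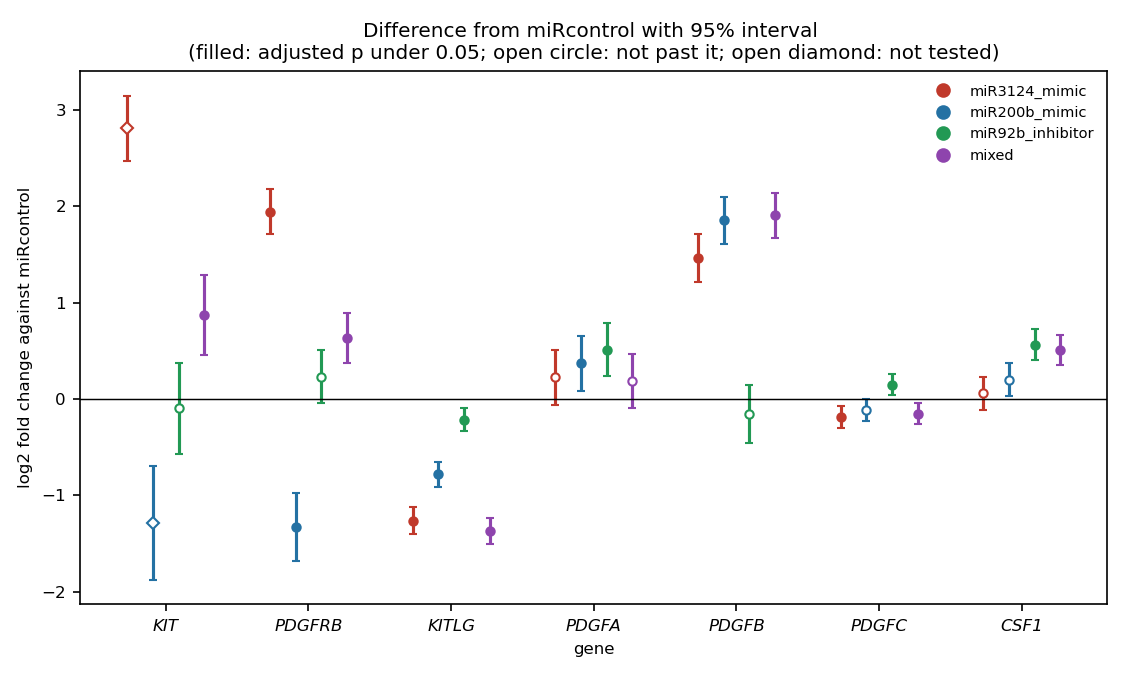
Log2 fold change against miRcontrol (y axis) of the 7 members with fitted values (x axis) in the 4 groups other than miRcontrol, with 95% intervals from edgeR. Filled circles passed an adjusted p of 0.05, open circles did not, and the open diamonds of KIT were not tested. The intervals at these diamonds are descriptive and serve as no test, since KIT was chosen by those values. KITLG lies below 0 in all 4 groups, and PDGFRB lies above 0 with the miR-3124-5p mimic (1.95) and below 0 with the miR-200b-3p mimic (-1.33).

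Counts of called members were read against the share of all genes. Against miRcontrol, 2 of 6 tested members were higher in miR3124_mimic, as were 25.7% of all genes tested, and 2 were lower, as were 25.3%. With the miR-200b-3p mimic 2 of 6 were higher, as were 21.4% of all genes, and 2 were lower, as were 19.1%. With the miR-92b inhibitor 3 of 7 were higher against 17.5% of all genes, and 1 was lower against 18.2%. In the mixed group 4 of 7 were higher against 21.5% of all genes, and 2 were lower against 21.1%. KIT was among the 4 that were higher, and its test used the miRcontrol libraries, on which its choice also drew. With so many genes called in each comparison, the number of members called was no result by itself. Changes of at least 2-fold were less common: 5.37% of all genes were that much higher in miR3124_mimic, as were PDGFRB and PDGFB, and 2.75% were that much lower, as was KITLG. In miR200b_mimic PDGFB was among the 2.72% that were at least 2-fold higher and PDGFRB among the 2.16% that were at least 2-fold lower. In the mixed group PDGFB was among the 3.14% that were that much higher and KITLG among the 1.53% that were that much lower.

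Between the mixed group and miR3124_mimic, 2 of 6 tested members were higher in the mixed group, as were 25.3% of all genes, and 1 was lower, as were 23.8%. Against miR200b_mimic 2 of 6 were higher with 18.2% of all genes, and 1 was lower with 20.4%. Against miR92b_inhibitor 3 of 7 were higher with 19.7% of all genes, and 3 were lower with 19.9%. The 3 that were higher than with the miR-92b inhibitor were KIT, PDGFRB and PDGFB, the last by 2.06 on the log2 scale (SE 0.12, adjusted p = 1.47e-19, edgeR). The 3 that were lower were KITLG (a log2 change of -1.16, adjusted p = 4.12e-19), PDGFC (-0.30, adjusted p = 8.86e-06) and PDGFA (-0.33, adjusted p = 0.0407). The call of PDGFA was lost without miR92b_inhibitor replicate 1 (adjusted p = 0.302) and without either mixed library (adjusted p = 0.0784 and 0.167).

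The mixed group was next set against the sum of the 3 single log2 effects. For KITLG the single effects summed to -2.26 and the mixed effect was -1.37, a departure of 0.89 (SE 0.13, adjusted p = 8.00e-07, edgeR). For PDGFB they summed to 3.16 and the mixed effect was 1.91, a departure of -1.25 (SE 0.26, adjusted p = 2.78e-04). In both genes the mixed change was smaller than the sum, and the larger single change was -1.26 for KITLG (miR3124_mimic) and 1.85 for PDGFB (miR200b_mimic). For PDGFA the sum was 1.11 and the mixed effect 0.18, a departure of -0.92 (adjusted p = 0.0116) that was lost without miRcontrol replicate 1 (adjusted p = 0.0579) or replicate 2 (adjusted p = 0.0627). Departures were not past the threshold for PDGFRB (-0.21, 95% interval -0.80 to 0.37, adjusted p = 0.681), CSF1 (-0.32, -0.65 to 0.01, adjusted p = 0.180) or PDGFC (0.00, -0.21 to 0.21, adjusted p = 0.9998). In all, 1 of 6 tested members departed upward, as did 11.7% of all genes, and 2 departed downward, as did 10.1%. For KIT the sum was 1.43 and the mixed effect 0.87, given as a description, and the departure of -0.55 (SE 0.48) turned to 0.03 without miRcontrol replicate 1. Since the amount of each agent in the mixed group was not given, these sums assume equal doses.

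**Figure D3:**
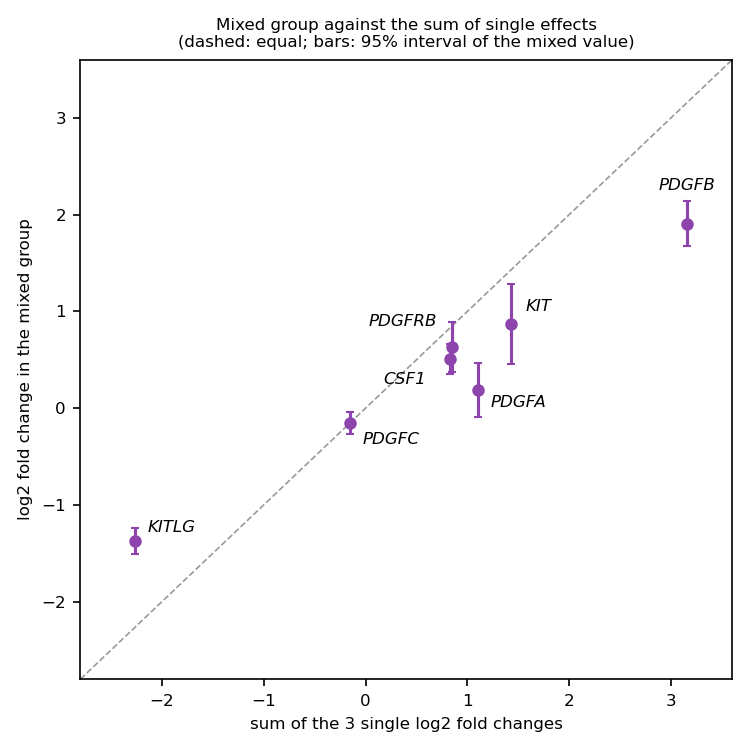
Log2 fold change in the mixed group (y axis, with 95% interval) against the sum of the 3 single log2 fold changes (x axis) for the 7 members with fitted values. The dashed line marks equality. PDGFB (sum 3.16, mixed 1.91) and KITLG (sum -2.26, mixed -1.37) lie off the line toward 0, and PDGFC lies on it.

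Levels of different members were compared per kb of merged exon. In miRcontrol, PDGFC had 13.7 CPM per kb, KITLG 10.3, CSF1 4.38, PDGFB 2.14, PDGFA 1.75, PDGFRB 1.07 and KIT 0.475. The ligands therefore all lay above the receptors in control cells. With the miR-3124-5p mimic, KIT had 3.34 CPM per kb, PDGFRB 4.13 and KITLG 4.31, so that the receptors lay near the KIT ligand on this scale. With the miR-200b-3p mimic, KIT had 0.195 CPM per kb, PDGFRB 0.426 and KITLG 5.99. No test was made between genes.

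The genes whose level over the 10 libraries was most like that of KIT were HTRA1 (Pearson r = 0.992), a secreted serine protease, ITPR1 (0.984), an intracellular calcium channel, NEO1 (0.984), a netrin receptor, CD14 (0.984), a co-receptor for lipopolysaccharide, and NID1 (0.983), a basement membrane protein. They were chosen among 2422 genes with a log2 range of at least 1, and the libraries of a group share their treatment, so these values are descriptions. With Spearman's rho in place of r, 1 of these 5 remained in the first 5. HTRA1 had 31.6 ± 0.73 CPM in miRcontrol, 115 ± 7.72 in miR3124_mimic and 16.6 ± 0.852 in miR200b_mimic (SD, n = 2 each). CD14 had 1.12 ± 0.446, 12.6 ± 0.220 and 0.417 ± 0.0611 CPM in the same groups. PDGFRB ranked 30 among these candidates (r = 0.968). KITLG had r = -0.554 and PDGFB r = 0.182.

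**Figure D4:**
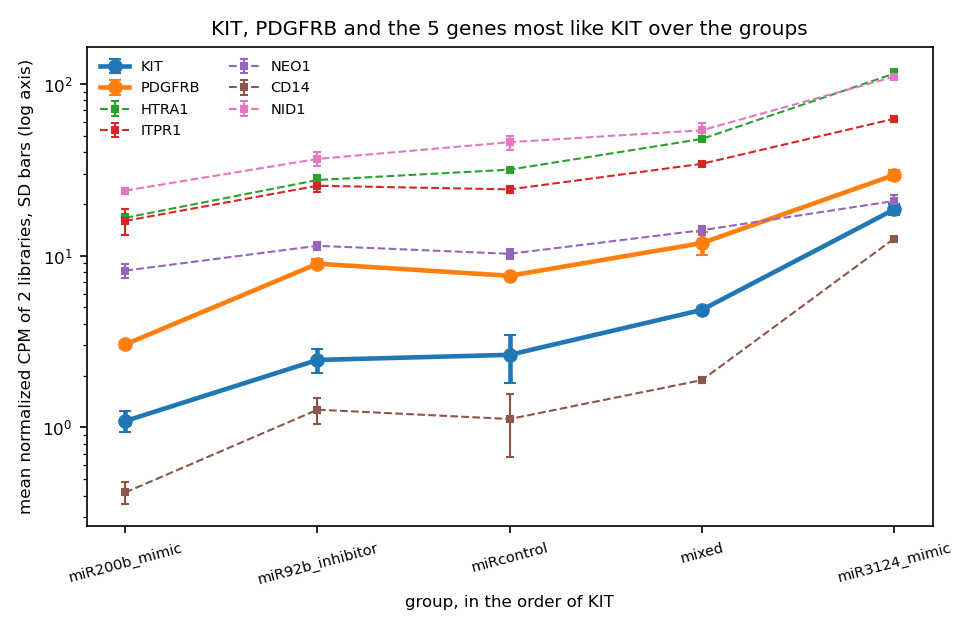
Mean normalized CPM of 2 libraries (y axis, log scale, bars are SD) of KIT, PDGFRB and the 5 genes most like KIT, over the 5 groups ordered by the mean level of KIT (x axis). Each gene is lowest in miR200b_mimic and highest in miR3124_mimic, where KIT reaches 18.6 CPM, PDGFRB 29.5 CPM and HTRA1 115 CPM.

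CD14 is also a monocyte marker, and markers of other cells that use these receptors were read beside the family. Of 5 macrophage and monocyte markers, CD163 had no count in any library, PTPRC at most 2, LYZ at most 7 and MRC1 at most 8. Their summed level was 0.973 to 1.67 CPM in miRcontrol, where CD14 had a mean of 1.12 CPM, and 12.8 to 12.9 CPM in miR3124_mimic, where CD14 had 12.6 CPM. Of 5 mast cell markers, TPSAB1 and TPSB2 had no count, MS4A2 and HDC had at most 1, and CPA3 had 7 to 33. The summed mast cell level, nearly all of it CPA3, was 1.20 to 1.31 CPM in miRcontrol and 0.478 to 0.566 CPM in miR3124_mimic. It was 0.598 to 0.690 CPM in miR200b_mimic, 1.59 to 1.93 in miR92b_inhibitor and 0.608 to 0.753 in the mixed group. Of 4 endothelial markers, PECAM1 had at most 4 counts, while CDH5 reached 59, and their sum was 0.343 to 0.537 CPM in miRcontrol and 3.11 to 4.99 CPM in miR3124_mimic. The melanocyte enzyme TYR had no count, and the 4 melanocyte markers summed to 1.09 to 1.19 CPM in miRcontrol and 0.956 to 1.30 CPM in miR3124_mimic. The 5 smooth muscle and pericyte markers summed to 162 to 174 CPM in miRcontrol and 155 to 161 CPM in miR3124_mimic, nearly all of it CSPG4, while MYH11 had no count. The part of these markers in the results on the family was not tested.

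The wider pathway was read from 6 lists of 73 genes in all, given as counts and medians beside all genes, whose median log2 difference lay within 0.01 of 0 in each comparison. Beside these counts stand the shares of all genes called higher and lower, which were 25.7% and 25.3% with the miR-3124-5p mimic, 21.4% and 19.1% with the miR-200b-3p mimic, 17.5% and 18.2% with the miR-92b inhibitor and 21.5% and 21.1% with the mixture. Among 12 genes that report ERK activity, 7 rose and 3 fell in miR3124_mimic, and 9 rose and 1 fell in each of the other 3 groups, and the list's median log2 difference was 0.41 with the miR-3124-5p mimic, 0.39 with the miR-200b-3p mimic, 0.43 with the miR-92b inhibitor and 0.47 with the mixture. EGR1, an immediate early transcription factor, stood at 8.69 ± 1.07 CPM in miRcontrol, 41.0 ± 8.53 in miR92b_inhibitor and 46.9 ± 1.57 in the mixed group (SD, n = 2 each). It rose by 2.43 on the log2 scale in the mixed group (SE 0.11, adjusted p = 3.96e-23, edgeR), by 2.24 in miR92b_inhibitor and by 1.23 in miR200b_mimic, and the difference was -0.23 (adjusted p = 0.242) in miR3124_mimic. DUSP6, the ERK phosphatase, rose in all 4 groups, by 1.13 with the miR-3124-5p mimic, 1.22 with the miR-200b-3p mimic, 0.93 with the miR-92b inhibitor and 1.57 with the mixture on the log2 scale. FOS rose likewise in all 4, most in the mixed group (log2 2.64, SE 0.31, adjusted p = 1.16e-09). The same 2 miRcontrol libraries served all 4 comparisons, so these rises were not independent of each other.

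A list of 24 genes for signalling proteins close to the receptors held adaptors, kinases, phosphatases and STAT transcription factors, among others. Of these, 7 rose and 11 fell with the miR-3124-5p mimic (median log2 difference -0.12). With the miR-200b-3p mimic 7 rose and 8 fell (0.04). With the miR-92b inhibitor 1 rose and 5 fell (-0.02), and with the mixture 4 rose and 11 fell (-0.19). PIK3R2, a regulatory subunit of phosphatidylinositol 3-kinase, stood at 81.7 ± 2.33 CPM in miRcontrol and 14.9 ± 0.792 in miR3124_mimic. It fell by 2.46 on the log2 scale there (SE 0.07, adjusted p = 4.84e-31, edgeR) and fell by 1.56 in the mixed group, and rose by 0.40 in miR200b_mimic. PLCG1, a phospholipase that docks on these receptors, fell by 0.93 in miR200b_mimic (adjusted p = 8.99e-22) and by 0.84 in the mixed group. PTPN6, a phosphatase that acts on KIT, rose by 0.99 in both of these groups. It went from 2.32 ± 1.02 CPM in miRcontrol to 4.599 ± 0.158 and 4.586 ± 0.474 CPM (SD, n = 2 each).

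Among 11 genes for ligand processing and ligand co-receptors, 7 rose and 1 fell with the miR-3124-5p mimic (median 0.62), 2 rose and 5 fell with the miR-200b-3p mimic (-0.21), 4 rose and 3 fell with the miR-92b inhibitor (-0.09) and 5 rose and 3 fell with the mixture (0.24). PLAU, the urokinase protease, rose by 1.40 on the log2 scale in miR3124_mimic (SE 0.04, adjusted p = 2.30e-32, edgeR) and in each of the other 3 groups. PLAT, the protease that activates PDGF-CC, fell by 1.17 in miR200b_mimic (SE 0.05, adjusted p = 2.67e-23) and rose by 0.59 in miR92b_inhibitor. It also fell by 0.76 in the mixed group and by 0.23 in miR3124_mimic. LRP1, a co-receptor of PDGFRB, stood at 335 ± 6.91 CPM in miRcontrol, 516 ± 13.1 in miR3124_mimic and 161 ± 5.77 in miR200b_mimic. LRP1 rose by 0.62 in the first (adjusted p = 9.79e-19) and fell by 1.06 on the log2 scale in the second (adjusted p = 1.08e-25). It also fell by 0.49 in miR92b_inhibitor and by 0.39 in the mixed group (adjusted p = 2.08e-11), where PDGFRB rose.

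Of 11 tested negative regulators, 4 rose and 2 fell with each mimic (median 0.01 for miR-3124-5p and 0.20 for miR-200b-3p), 4 rose and 1 fell with the inhibitor (0.17), and 4 rose and none fell with the mixture (0.01). PTPRJ, a receptor-type phosphatase, rose by 0.57 on the log2 scale in miR3124_mimic (adjusted p = 2.51e-16, edgeR), and SH2B3, an adaptor that restrains KIT, fell by 0.45 there (adjusted p = 1.22e-09). PTPN2 rose most in the mixed group (log2 0.48, adjusted p = 9.73e-08). Of 7 tested transcription factors known to act on KIT in blood, mast cells, melanocytes or gut, 2 rose and 4 fell with the miR-3124-5p mimic (median -0.14), 2 rose and 3 fell with the miR-200b-3p mimic (-0.29), 1 rose and 3 fell with the miR-92b inhibitor (-0.15) and 2 rose and 3 fell with the mixture (-0.08). MITF, the melanocyte master regulator, stood at 20.1 ± 1.92 CPM in miRcontrol, 10.3 ± 0.355 in miR3124_mimic and 43.1 ± 1.26 in miR200b_mimic (SD, n = 2 each). It fell by 0.97 on the log2 scale in the first (adjusted p = 2.04e-10) and rose by 1.10 in the second (adjusted p = 6.10e-15). It fell by 0.32 in miR92b_inhibitor (adjusted p = 0.00786) and rose by 0.48 in the mixed group (adjusted p = 1.63e-05), where KIT rose as well. GATA2 fell by 1.05 in miR200b_mimic (adjusted p = 2.46e-15) and by 0.90 in the mixed group, and ETV1 rose by 0.96 in miR3124_mimic (adjusted p = 7.08e-08).

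Of the 5 other family genes, PDGFD, FLT3 and IL34 did not pass the filter. PDGFRL, a PDGF receptor-like gene, rose by 0.76 on the log2 scale in miR3124_mimic (adjusted p = 0.00865, edgeR) and fell by 1.06 in miR200b_mimic (adjusted p = 0.00529), and its differences were -0.64 in miR92b_inhibitor (adjusted p = 0.0771) and 0.01 in the mixed group (adjusted p = 0.984). FLT3LG, the FLT3 ligand, fell by 0.51 in miR3124_mimic (adjusted p = 0.0474).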

How the data were processed

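mRNA of 10 BEAS2B libraries (5 groups of 2) was sequenced from a strand-marking kit. The authors trimmed the reads, mapped them with TopHat to GRCh38 (submitters' processing notes) and deposited raw read counts per gene, which were used here without the FPKM or normalization named in the methods. The counting tool, its strand setting, the annotation and the TopHat version are not given in the sources used here, so antisense genes overlapping KITLG, PDGFB and PDGFC may share reads with them. Doses and times are from the study's methods. Counts of repeated symbols were summed (58173 rows, 52402 symbols).

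edgeR 4.0.16 (R 4.3.3) was used with filterByExpr, RLE scaling and a quasi-likelihood fit of all 10 libraries without covariates, with Benjamini-Hochberg adjustment over 14884 genes and a threshold of 0.05. The common dispersion was 7.51e-04. Scripts were tested on simulated counts. Alternatives were TMM, library totals, DESeq2 1.42.0, only the groups compared, 2 other count filters, a replicate block and leaving out each library. The named genes of the pathway lists were run only with TMM and library totals. The limit given for a count of 0 covers counting error only. Members, gene lists and tests were chosen with earlier results of these data known. From each pathway list, up to 3 genes were named, those with the largest absolute log2 fold change against miRcontrol among genes called, with a mean of at least 1 CPM, and the 5 genes with the highest Pearson correlation with KIT were named. 3′UTRs and exon lengths were from GENCODE v29, and miRNAs from RefSeq. No protein sequences were used here.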

Additional observations from a re-analysis of the deposited data

How the results depend on the processing

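Counts of called members stayed within 1.5 times of those given above in every alternative. Without one library they were 3 to 4 for miR3124_mimic and for miR200b_mimic, 3 for miR92b_inhibitor and 4 to 6 for mixed, each against miRcontrol, 3 for mixed against either mimic, 4 to 5 for mixed against miR92b_inhibitor and 2 to 3 for the departure. Of 266 values of member fold changes without one library, 249 kept their direction, and of the 240 with a test 220 kept their side of the threshold, 19 lost it and 1 gained it. Under the other alternatives 381 of 385 kept their direction, and 341 of 351 with a test kept their side. No tested value that turned was called before or after. Those that turned without one library were CSF1 in miR3124_mimic (-0.0042 to 0.12), KIT (-0.39 to 0.25) and PDGFB (-0.39 to 0.0620) in miR92b_inhibitor, PDGFC in mixed against miR3124_mimic (-0.0260 to 0.10) and against miR200b_mimic (-0.0889 to 0.0020), PDGFB in mixed against miR200b_mimic (-0.0737 to 0.17), CSF1 in mixed against miR92b_inhibitor (-0.12 to 0.0127) and the departures of PDGFC (-0.0635 to 0.0606) and KIT. The departure of PDGFC was also -0.0080 with library totals, -0.0023 with DESeq2, -0.0037 with at least 10 counts in every library and -0.0041 with the replicate block. The departure of KIT turned from -0.55 to 0.0291 without miRcontrol replicate 1 and was -1.25 without replicate 2, and KIT in miR3124_mimic ranged from 2.52 to 3.16 and in miR200b_mimic from -1.58 to -0.94. With DESeq2's Wald test the calls of PDGFA in miR200b_mimic (adjusted p = 0.133), PDGFC in miR92b_inhibitor (0.0974) and mixed (0.0828), PDGFRB (0.0629) and PDGFA (0.172) in mixed against miR92b_inhibitor and the departure of PDGFA (0.0694) were lost, and the cause was not tested. CSF1 in miR200b_mimic passed with TMM (adjusted p = 0.0438), and FLT3LG in miR3124_mimic was lost with library totals (0.0622). Libraries with the same number in different groups did not deviate together, with correlations of -0.0625 to 0.0613 over 10419 genes. With the replicate block 4, 4, 4 and 6 members were called in miR3124_mimic, miR200b_mimic, miR92b_inhibitor and mixed against miRcontrol, the same numbers as without it, and it changed no call of a member. At 16 to 54 counts, KIT was limited by depth in miRcontrol and miR200b_mimic.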
